A study of Mus musculus with 12 samples.

Results

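The genes of thyroid hormone activation and response, Dio1, Dio2, Thra, Thrb, Thrsp and Klf9, were followed in mouse liver and lung. Every probe set on the Affymetrix mouse expression array annotated to a single gene of the 6 was taken, which gave 16 probe sets of 29409, for 6 genes of 13710 with such a probe set in the deposited table. Dio1 and Thrb had 1 probe set each, Dio2 and Thrsp 2 each, Thra 3 and Klf9 7. Measured values played no part in the choice of probe sets. Both tissues came from FVB/N males that had received, from weaning and for 6 weeks, a torula yeast-based diet low in selenium that carried either no supplement (0 Se) or 0.1 ppm selenium as sodium selenite (0.1 Se). Each of the 4 groups had 3 arrays, called biological replicates in the labels, which do not say whether a liver array and a lung array with the same number came from the same mouse. Values are given in the order of the replicate numbers, and the first, the second and the third array of a group are its replicates of that number. All values are log2 of the MAS5 signal, an array brightness in arbitrary units, and the lowest value in the table is 6.64, a signal of 100. A probe set with no value on an array is described as not listed, since absent calls and low signals were both left blank.

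The thyroid gland releases mostly the prohormone T4, and tissues turn it into the active hormone T3 by removing an iodine from its outer ring. The deiodinases that do this, encoded by Dio1 and Dio2, carry selenocysteine in their active site, which ties thyroid hormone activation to selenium supply. T3 binds the nuclear receptors encoded by Thra and Thrb, which sit on the DNA of their target genes with the retinoid X receptor and switch them on when hormone is bound. Thrsp (Spot 14) and Klf9 are widely used readouts of that response. The question put to the arrays was whether the target transcripts follow the deiodinase transcripts. The arrays measured mRNA only, so deiodinase activity and hormone levels were not analysed here.

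The 250 bases upstream of the gene start are printed for the deiodinases and for both target genes, to look for the letters of the receptor half-site next to their starts. The sequences are those of RefSeq on GRCm38.p6, which held windows for 5 of the 6 genes, with no entry for Thra. Capitals mark the letters AGGTNA, a relaxed form of the receptor half-site AGGTCA that includes AGGTCA itself, on the printed strand or, as TNACCT, on the opposite strand.
Dio1, chr4:107307169-107307418, minus strand: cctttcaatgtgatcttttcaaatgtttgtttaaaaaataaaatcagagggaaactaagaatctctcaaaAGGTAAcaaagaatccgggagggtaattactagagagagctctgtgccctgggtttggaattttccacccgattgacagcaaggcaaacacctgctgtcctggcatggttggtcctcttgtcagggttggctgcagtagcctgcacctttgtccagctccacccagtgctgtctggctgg
Dio2, chr12:90739039-90739288, minus strand: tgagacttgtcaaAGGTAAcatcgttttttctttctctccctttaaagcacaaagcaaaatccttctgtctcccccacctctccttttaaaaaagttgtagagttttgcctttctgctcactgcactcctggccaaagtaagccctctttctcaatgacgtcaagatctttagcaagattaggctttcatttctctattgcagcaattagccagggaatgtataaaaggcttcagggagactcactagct
Thrsp, chr7:97417551-97417800, minus strand: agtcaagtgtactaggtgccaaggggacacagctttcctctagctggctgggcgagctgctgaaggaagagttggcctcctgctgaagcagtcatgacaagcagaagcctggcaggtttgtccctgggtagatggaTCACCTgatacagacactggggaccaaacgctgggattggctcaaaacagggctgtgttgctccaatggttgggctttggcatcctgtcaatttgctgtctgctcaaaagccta
Klf9, chr19:23140976-23141225, plus strand: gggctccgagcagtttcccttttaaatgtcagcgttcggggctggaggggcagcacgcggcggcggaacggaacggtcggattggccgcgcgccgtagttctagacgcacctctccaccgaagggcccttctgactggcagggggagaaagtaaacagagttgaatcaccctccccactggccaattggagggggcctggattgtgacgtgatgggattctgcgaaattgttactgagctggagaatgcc
The match began 180 bases before the gene start in Dio1, 237 bases before it in Dio2 and 114 bases before it in Thrsp, where it lay on the opposite strand. The Klf9 window held no match, and AGGTCA itself was in none of the 4 windows. Thrb had 2 windows, not printed here, which each held AGGTNA, at 184 and 182 bases before their gene starts, and the match at 184 bases was AGGTCA itself. Of 32851 windows of the same length, 37.2% held AGGTNA and 14% held AGGTCA, so these matches are a description of the letters and not of a site in use.

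Dio1 had values in liver only. Its probe set, 1417991_at, was listed on all 6 liver arrays and on none of the 6 lung arrays. In 0 Se liver it read 12.59, 12.85 and 12.80, and in 0.1 Se liver it read 13.80, 12.63 and 13.00. The second 0.1 Se array lay within the 0 Se range and the first stood well above every other array, so the groups overlapped. The difference of 0.1 Se minus 0 Se was 0.40 ± 0.23 (SE) on the log2 scale, a 1.32-fold higher mean, with a 95% interval from -0.12 to 0.91 and an adjusted p of 0.824 in limma. Without the first 0.1 Se liver array the difference was 0.07, and without the second it was 0.65. In this comparison 0.0121% of the 16575 probe sets tested passed the adjusted threshold of 0.05, and none of the 11 probe sets of the thyroid hormone genes did.

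Dio2, the deiodinase dedicated to making T3 inside the cell, was seen close to the lower limit of the table. On 1418937_at it was listed on all 6 lung arrays and on no liver array. The values were 7.21, 7.62 and 6.97 in 0 Se lung and 7.07, 7.17 and 6.70 in 0.1 Se lung. The groups overlapped, with the highest value on the second 0 Se array and the lowest on the third 0.1 Se array. The difference was -0.28 ± 0.21 on the log2 scale (95% interval -0.74 to 0.18), with an adjusted p of 0.823 in limma, and it was -0.10 without the second 0 Se array. In lung 0.0924% of 21655 probe sets passed, again none of them among the 11 member probe sets tested. The other Dio2 probe set, 1418938_at, was listed on 1 lung array, at 7.16 in the first 0.1 Se array, and on 3 liver arrays, at 6.90 in the first 0 Se array and at 6.67 and 7.33 in the second and the third 0.1 Se array. The 2 probe sets therefore disagreed on the tissue in which Dio2 was listed, and 1418938_at had too few values for a test.

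**Figure D1:**
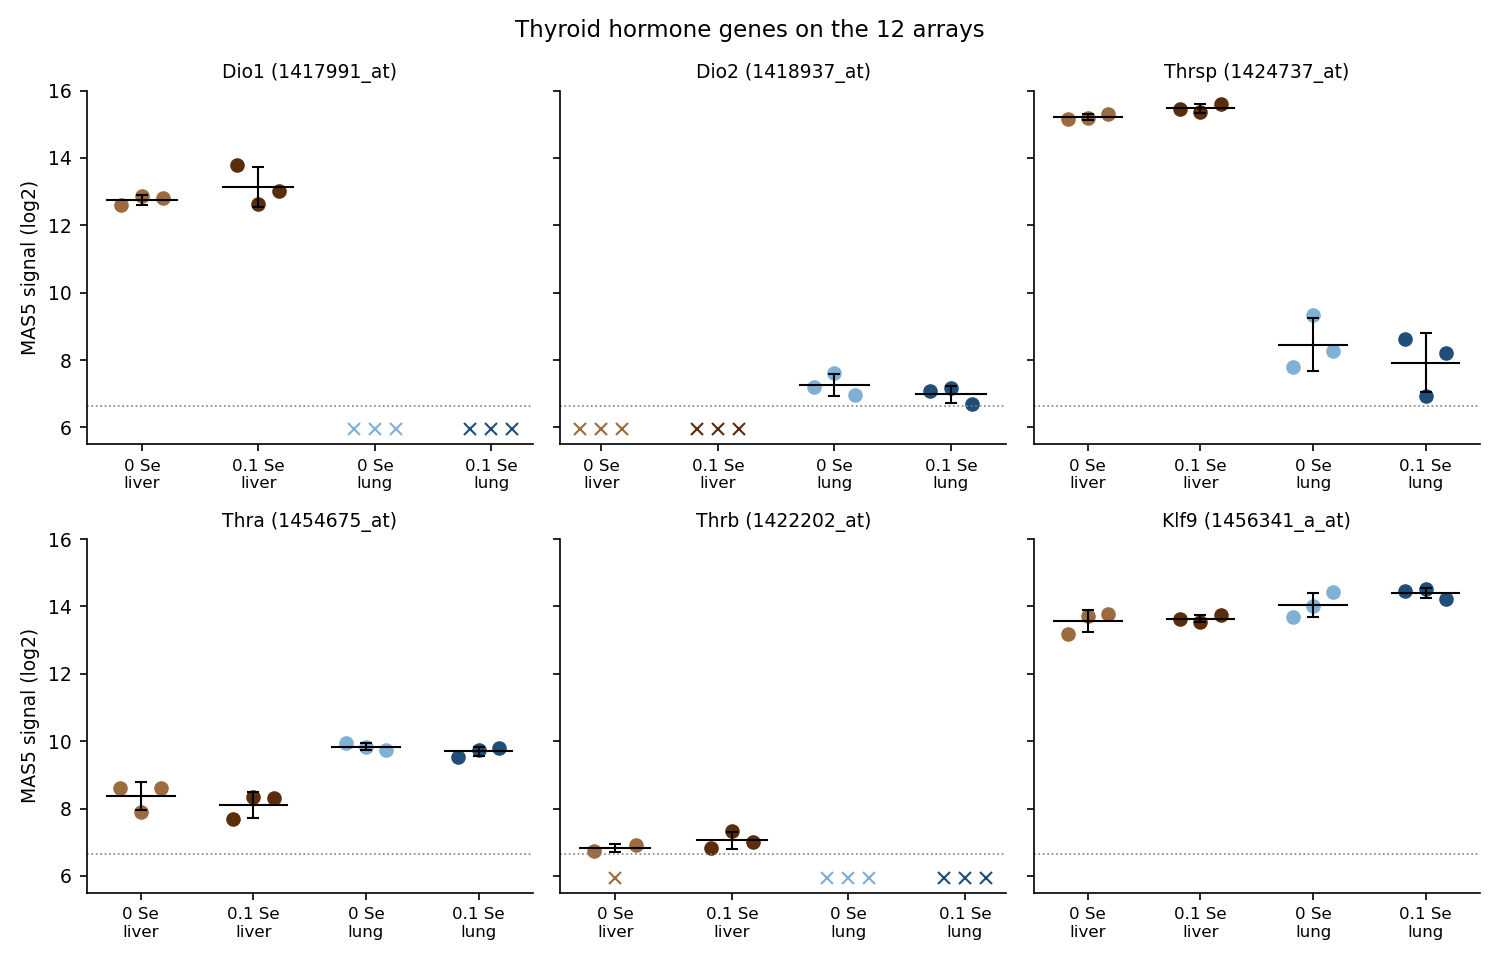
Log2 MAS5 signal of each gene on every array (y axis), for the probe set with the most values, by diet and tissue (x axis). Dots are arrays, horizontal lines and bars are the mean and SD of listed values, crosses below the dotted line at 6.64 are arrays on which the probe set was not listed. Dio1 and Thrb have values in liver only, Dio2 in lung only, and Thrsp is far higher in liver than in lung in both diets.

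The receptor genes differed in where they were listed. Thrb, which encodes the main T3 receptor of hepatocytes, was listed in liver only, near the lower limit, on 1422202_at. It read 6.74 and 6.91 on the first and the third 0 Se array and was not listed on the second, and it read 6.84, 7.34 and 6.99 in 0.1 Se liver. The difference was 0.23 ± 0.23 on the log2 scale with 2 values against 3, an overlap of the groups and an adjusted p of 0.889 in limma, and it was 0.090 without the second 0.1 Se array. No lung array listed Thrb.

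Thra, the receptor gene expressed in most tissues, was listed on all 12 arrays by both 1454675_at and 1426997_at. On 1454675_at liver read 8.62, 7.88 and 8.61 in 0 Se and 7.67, 8.34 and 8.32 in 0.1 Se. In lung the same probe set read 9.94, 9.82 and 9.74 in 0 Se and 9.54, 9.74 and 9.81 in 0.1 Se. The 2 diets overlapped in each tissue, and every lung array lay above every liver array. The diet difference was -0.26 ± 0.26 in liver (adjusted p = 0.888) and -0.14 ± 0.11 in lung (adjusted p = 0.833), both in limma. Leaving out 1 array moved it from -0.50 without the second 0 Se array to -0.039 without the first 0.1 Se array in liver, and to -0.061 without the first 0.1 Se array in lung. On 1426997_at it was 0.10 ± 0.18 in liver and -0.23 ± 0.14 in lung. The third probe set, 1443952_at, was listed on all lung arrays, with a difference of -0.34 ± 0.17 (adjusted p = 0.710 in limma), and on 2 liver arrays. All 3 probe sets were thus below 0 in lung with overlapping groups, and none passed the test. The annotated span of Thra overlaps that of Nr1d1 on the opposite strand.

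Thrsp, a nuclear protein that promotes fatty acid synthesis in liver and fat, was higher on every 0.1 Se liver array than on any 0 Se liver array. On 1424737_at the values were 15.16, 15.17 and 15.32 in 0 Se and 15.44, 15.36 and 15.60 in 0.1 Se. On 1422973_a_at they were 14.46, 14.44 and 14.59 in 0 Se and 14.78, 14.68 and 15.17 in 0.1 Se. Both probe sets had their highest value on the third 0.1 Se array and separated the diets without overlap. The differences were 0.25 ± 0.10 (1.19-fold, 95% interval 0.04 to 0.47) and 0.38 ± 0.12 (1.30-fold, 0.10 to 0.66) on the log2 scale. With unadjusted p-values of 0.0252 and 0.0117 in limma, neither passed after adjustment over all probe sets (adjusted p = 0.683 and 0.635). Without the third 0.1 Se array the difference on 1422973_a_at was 0.23. These were the only 2 of the 10 member probe sets with a value on every liver array whose diets did not overlap, and they read the same gene. Over all 14759 such probe sets 4.99% had every 0.1 Se array higher and 7.22% had every 0.1 Se array lower.

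In lung Thrsp was listed at far lower values and scattered widely. On 1424737_at it read 7.78, 9.33 and 8.25 in 0 Se and 8.64, 6.94 and 8.20 in 0.1 Se. The second 0 Se array was the highest and the second 0.1 Se array the lowest, and the groups overlapped. The difference was -0.53 ± 0.44 on the log2 scale (95% interval -1.51 to 0.45, adjusted p = 0.845 in limma). It was -0.09 without the second 0 Se array and -0.04 without the second 0.1 Se array. On 1422973_a_at only 3 lung arrays listed Thrsp, at 8.08, 7.55 and 7.16, and no test was made. The diet difference in lung minus that in liver was -0.78 ± 0.52 (95% interval -1.89 to 0.32, adjusted p = 0.867 in limma), so opposite signs in the tissues were not a difference past the test.

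Lung Thrsp was set beside genes of fat cells. Adipoq, the fat cell hormone adiponectin, read 6.95, 10.30 and 7.82 in 0 Se lung and 8.21 and 7.67 on the first and the third 0.1 Se array. The 5 arrays that listed Adipoq had the same order for Thrsp and for Adipoq, and the array that did not list Adipoq had the lowest Thrsp. Adipoq was chosen after its values were seen. Cox8b, the only other gene of the fat cell marker list with values on more than 1 lung array, had another order. Cox8b read 7.72, 9.54 and 8.91 in 0 Se lung and 8.37, 7.89 and 7.93 in 0.1 Se lung, highest on the same array as Thrsp and lowest on the first 0 Se array, which was not the array with the lowest Thrsp. Of 10 markers of white and brown fat cells, 5, Cox8b among them, had a value on some array. Their summed signal ran from 333.5 to 2336 in 0 Se lung and from 237.8 to 626 in 0.1 Se lung. The highest sum was on the second 0 Se array, which alone listed Cidea and Retn and which also had the highest Dio2. Ucp1, the defining gene of brown fat, was not listed on any array. The summed signal of 7 cardiac muscle markers was also highest on that array, at 30370, against 3822 to 17750 on the other lung arrays. Cox8b had the same order as that cardiac sum over the 6 lung arrays, which was seen after the values were known. Whether the Cox8b values came from fat or from heart was not tested. Of the cardiac markers, 6 were tested in lung, and all 6 were below 0 for 0.1 Se minus 0 Se, from -0.89 to -0.48. Their median was -0.60 beside -0.0077 over all probe sets tested. None had an unadjusted p under 0.05 in limma, and the cardiac sums of the 2 diets overlapped. The part of fat or heart tissue in the lung values of Thrsp and Dio2 was not tested. In bulk tissue, fewer cells of a type and less RNA per cell cannot be told apart.

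**Figure D2:**
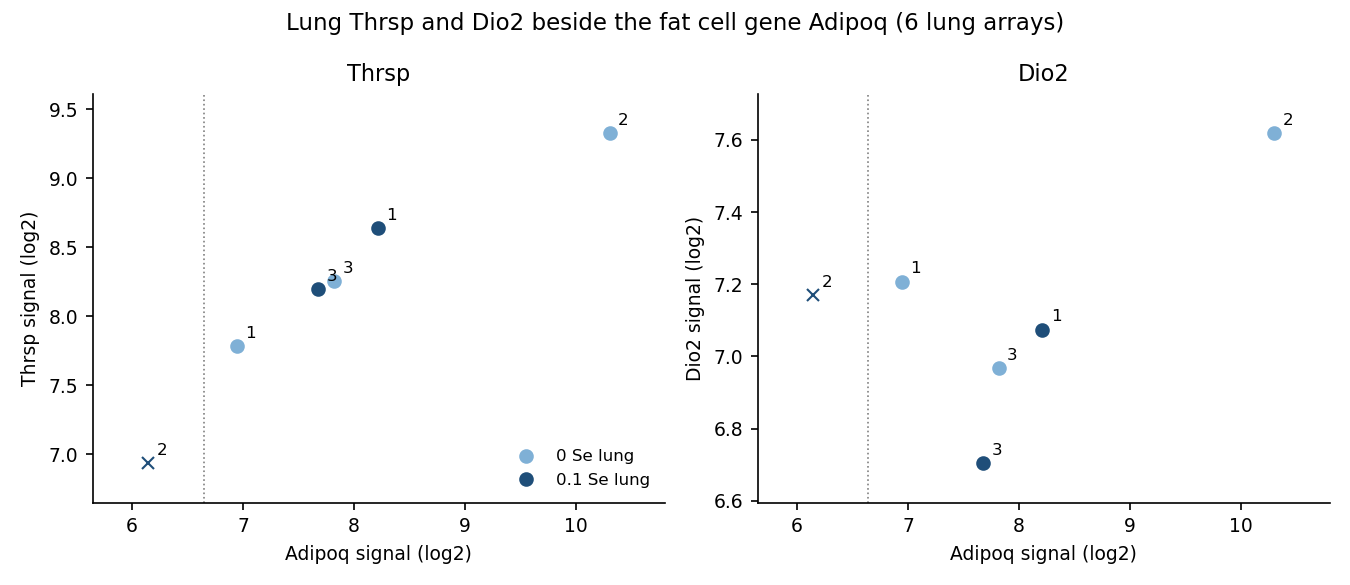
Log2 MAS5 signal of Thrsp (left) and Dio2 (right) on the y axes against that of Adipoq (x axis) on the 6 lung arrays, numbered by replicate. The cross is the array that did not list Adipoq, drawn left of the dotted line at 6.64. Thrsp has the same order as Adipoq on the 5 arrays that listed it. Dio2 shares the top array, the second 0 Se array. The first 0 Se array, lowest of those 5 in Adipoq at 6.95, is second highest in Dio2 at 7.21. The other arrays that listed Adipoq have the same order in Dio2.

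Klf9, a zinc finger transcription factor induced by T3 and also by glucocorticoids, was among the bright members in both tissues. In liver 1456341_a_at read 13.19, 13.73 and 13.77 in 0 Se and 13.61, 13.55 and 13.74 in 0.1 Se. The 0.1 Se arrays lay inside the 0 Se range, and the difference was 0.07 ± 0.14 on the log2 scale (95% interval -0.25 to 0.39, adjusted p = 0.951 in limma). The 5 Klf9 probe sets tested in liver had differences from -0.06 to 0.08, and none had separate groups.

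In lung the Klf9 values were mostly higher in 0.1 Se. On 1456341_a_at lung read 13.69, 14.01 and 14.42 in 0 Se and 14.46, 14.51 and 14.23 in 0.1 Se. The third 0 Se array lay above the third 0.1 Se array, so these groups overlapped. The difference was 0.35 ± 0.17 on the log2 scale (95% interval -0.02 to 0.73, adjusted p = 0.688 in limma).

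2 Klf9 probe sets had every 0.1 Se lung array above every 0 Se lung array. On 1422264_s_at the values were 9.68, 10.03 and 10.20 in 0 Se and 10.29, 10.42 and 10.37 in 0.1 Se. On 1436763_a_at they were 9.47, 9.93 and 9.98 in 0 Se and 10.45, 10.08 and 10.07 in 0.1 Se. Both pairs of groups were separate, the second by a narrow gap, and on both the first 0 Se array was the lowest. Their differences were 0.39 ± 0.13 (adjusted p = 0.466) and 0.40 ± 0.16 (adjusted p = 0.558), in limma. All 6 Klf9 probe sets tested in lung had differences above 0, from 0.21 to 0.40, and none passed the test. They read a single gene, and a name ending in _s_at or _a_at marks a probe set that can bind more than a single transcript. Without the first 0 Se array the 6 differences ran from -0.025, on 1428289_at, to 0.24. Among the 20062 probe sets with a value on every lung array, 6.07% had every 0.1 Se array higher and 6.86% had every 0.1 Se array lower, beside 2 and 0 of the 11 member probe sets. The seventh Klf9 probe set, 1452723_at, was not listed on any array, and 1436952_at was listed on all lung arrays and on 2 liver arrays.

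**Figure D3:**
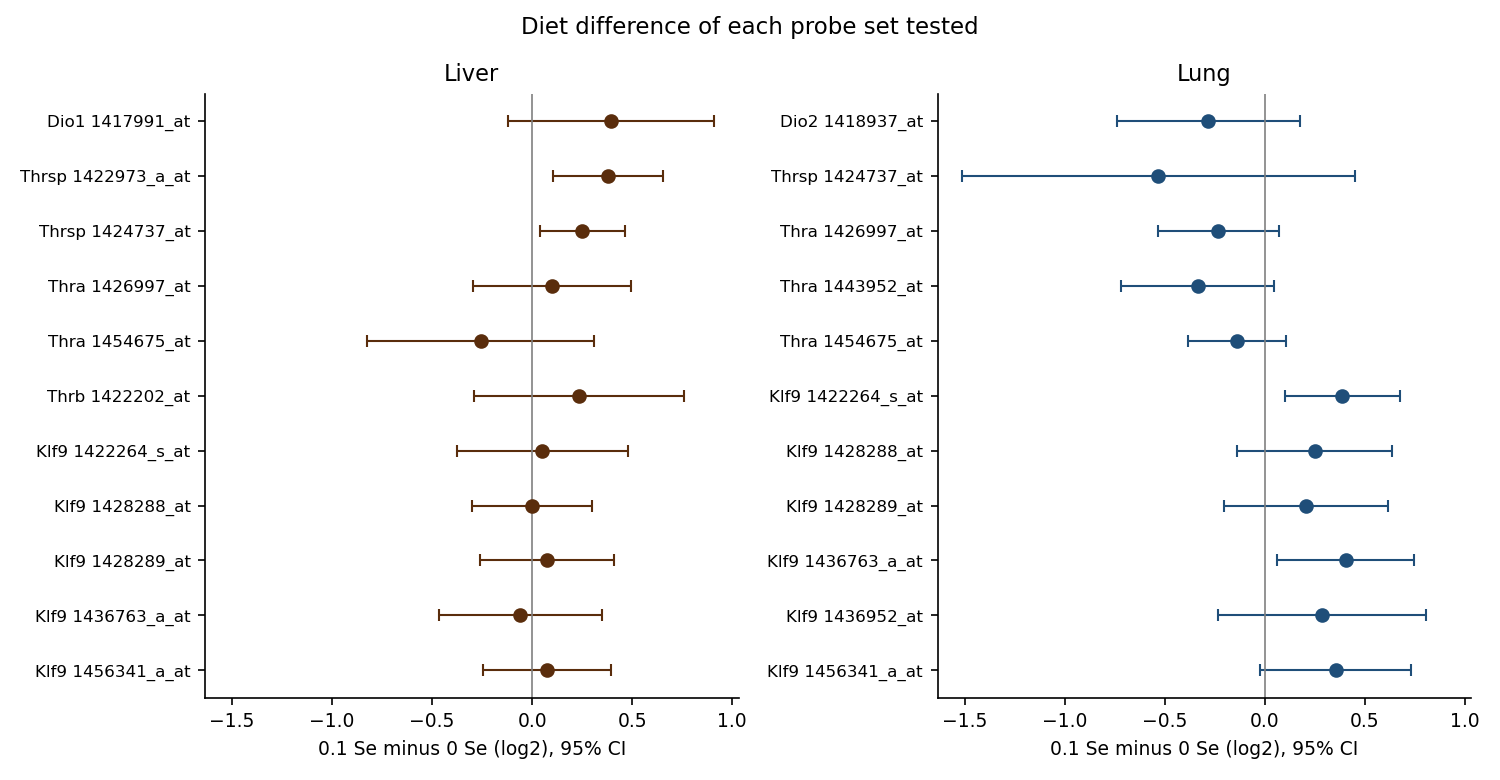
Difference between diets, 0.1 Se minus 0 Se on the log2 scale (x axis), for every probe set tested (rows) in liver and in lung, with 95% confidence intervals from limma. The intervals of both Thrsp probe sets in liver and of 2 Klf9 probe sets in lung leave out 0 before adjustment. Over all probe sets tested, 6.65% in liver and 7.67% in lung had an unadjusted p under 0.05 in limma. No probe set shown passed after adjustment over all probe sets.

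The diet difference did not differ between the tissues past the test for any member probe set tested. In a fit of all 12 arrays, 0% of 15112 probe sets passed for the lung difference minus the liver difference in limma, while 931 had an unadjusted p under 0.05 and 44 passed with blanks set to the lowest value. The 8 member probe sets with enough values had adjusted p-values from 0.814 to 0.965. The closest was Klf9 on 1436763_a_at, with 0.46 ± 0.26 and an unadjusted p of 0.0961 in limma.

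Whether the targets moved with the deiodinase was read array by array, over 6 arrays in each tissue and 6 pairs of genes. In liver Dio1 and Thrsp had a Pearson r of 0.48 (exact permutation p = 0.378, adjusted 0.637) and a Spearman rho of 0.71 (exact p = 0.136, adjusted 0.408). The array with the highest Dio1, the first 0.1 Se array, was second in Thrsp, and the array with the highest Thrsp, the third 0.1 Se array, was second in Dio1. Around the diet means r fell to 0.15, and without the 2 arrays farthest from the median of Dio1 it was 0.47. Dio1 and Klf9 had r = 0.30 (exact permutation p = 0.531, adjusted 0.637) and rho = 0.49 (exact p = 0.356, adjusted 0.533). Around the diet means r was 0.25, and without the 2 farthest arrays it was 0.78 over 4 arrays. Neither target gave a relation to Dio1 past the test.

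The relation of Dio1 to Thra ran the other way. Pearson r was -0.77 (exact permutation p = 0.0806, adjusted 0.483) and rho was -0.89 (exact p = 0.0333, adjusted 0.200), with r = -0.73 around the diet means. The first 0.1 Se array had the highest Dio1 and the lowest Thra, and without it and the first 0 Se array r was -0.15. Those 2 arrays had the highest and the lowest Dio1, and no other pair was left out. The drop therefore cannot show whether the relation rested on them in particular. The relation did not pass after adjustment.

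In lung Dio2 and Thrsp had r = 0.36 (exact permutation p = 0.486, adjusted 0.637), rho = 0.14 (exact p = 0.803, adjusted 0.803) and r = 0.22 around the diet means. Without the second 0 Se and the third 0.1 Se array, which had the highest and the lowest Dio2, r became -0.62, so the sign of this relation turned. No other pair of arrays was left out. Dio2 and Klf9 had r = -0.37 (exact permutation p = 0.489, adjusted 0.637), rho = -0.37 (exact p = 0.497, adjusted 0.597), r = -0.09 around the diet means and -0.56 without the same 2 arrays. Dio2 and Thra had r = 0.21 (exact permutation p = 0.744, adjusted 0.744), rho = 0.54 (exact p = 0.297, adjusted 0.533), r = -0.13 around the diet means and 0.51 without those arrays. None of the 6 relations passed the test after adjustment, and with 6 arrays each their precision was low.

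**Figure D4:**
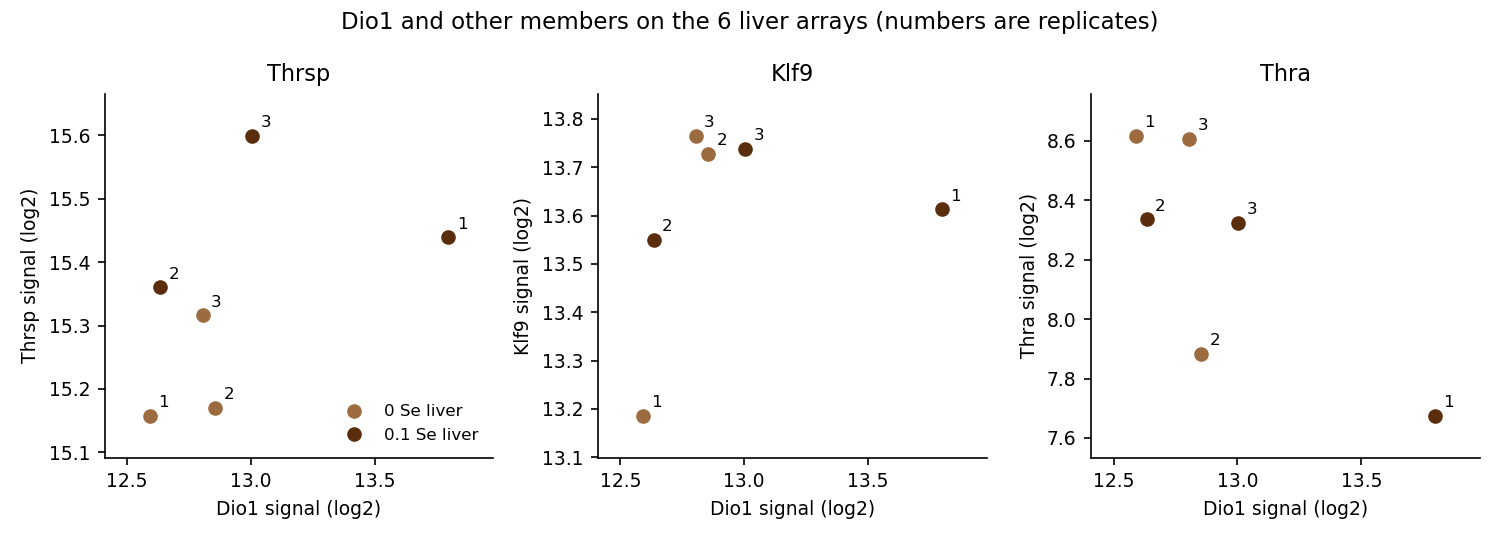
Log2 MAS5 signal of Thrsp, Klf9 and Thra (y axes) against that of Dio1 (x axes) on the 6 liver arrays, coloured by diet and numbered by replicate. The first 0.1 Se array stands apart in Dio1 at 13.80. Thrsp separates the diets, Klf9 does not, and Thra is lowest on the array with the highest Dio1.

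For Thrsp and Thra the tissues differed far more than the diets did. This did not hold for every Klf9 probe set, since 1436763_a_at differed by 0.15 between tissues in 0 Se and by 0.40 between diets in lung. Thrsp on 1424737_at was lower in lung, with a difference of lung minus liver of -6.76 ± 0.37 on the log2 scale in 0 Se, where 30.7% of 15112 probe sets were lower in lung past the test and 42.8% were higher. The lung mean was 108-fold lower (adjusted p = 2.1e-10 in limma). In 0.1 Se the difference was -7.54 ± 0.37, 186-fold lower in lung (adjusted p = 5.8e-11 in limma), beside 30.6% of probe sets lower and 43.4% higher. All lung arrays lay below all liver arrays in both diets.

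Thra was higher in lung. On 1454675_at lung exceeded liver by 1.47 ± 0.21 in 0 Se (2.76-fold, adjusted p = 1.2e-05) and by 1.59 ± 0.21 in 0.1 Se (3.00-fold, adjusted p = 5.4e-06), in limma on the log2 scale. On 1426997_at the differences were 1.27 ± 0.15 and 0.93 ± 0.15, with separate groups in both diets. Thra was thus listed in both tissues, while Thrb was listed on 5 of the 6 liver arrays and on no lung array.

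Klf9 was higher in lung by less. In 0.1 Se all 5 probe sets tested were higher in lung past the test, by 0.61 to 0.92 on the log2 scale, and none had overlapping groups. In 0 Se 4 of 5 were higher past the test, 3 of them with separate groups, and 1436763_a_at was not (0.15 ± 0.18, adjusted p = 0.472 in limma). The size of these differences depended on the scaling. The median of all probe sets tested was 0.18 higher in lung in 0 Se and 0.19 in 0.1 Se, and centring each array on its median lowered every difference by 0.20. In 0 Se that left 1428288_at and 1428289_at past the test, turned 1436763_a_at to -0.05 and took 1422264_s_at to 0.22 (adjusted p = 0.272) and 1456341_a_at to 0.29 (adjusted p = 0.157), in limma. The call of 1456341_a_at in 0 Se was also lost without the first 0 Se liver array (0.30, adjusted p = 0.121) or the third 0 Se lung array (0.29, adjusted p = 0.122). In 0.1 Se centring ended the call of 1436763_a_at alone (0.41, adjusted p = 0.0612 in limma). Quantile normalization moved the values the other way, to between 0.39 for 1436763_a_at and 1.44 for 1428289_at in 0 Se and to between 0.88 for 1436763_a_at and 1.66 for 1428288_at in 0.1 Se, with 1456341_a_at at 1.22 and 1.60. Of all calls between tissues, 58.2% were higher in lung in 0 Se and 58.7% in 0.1 Se. Those shares were 48.9% and 49.4% after median centring and 69.5% and 69.7% after quantile normalization.

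**Figure D5:**
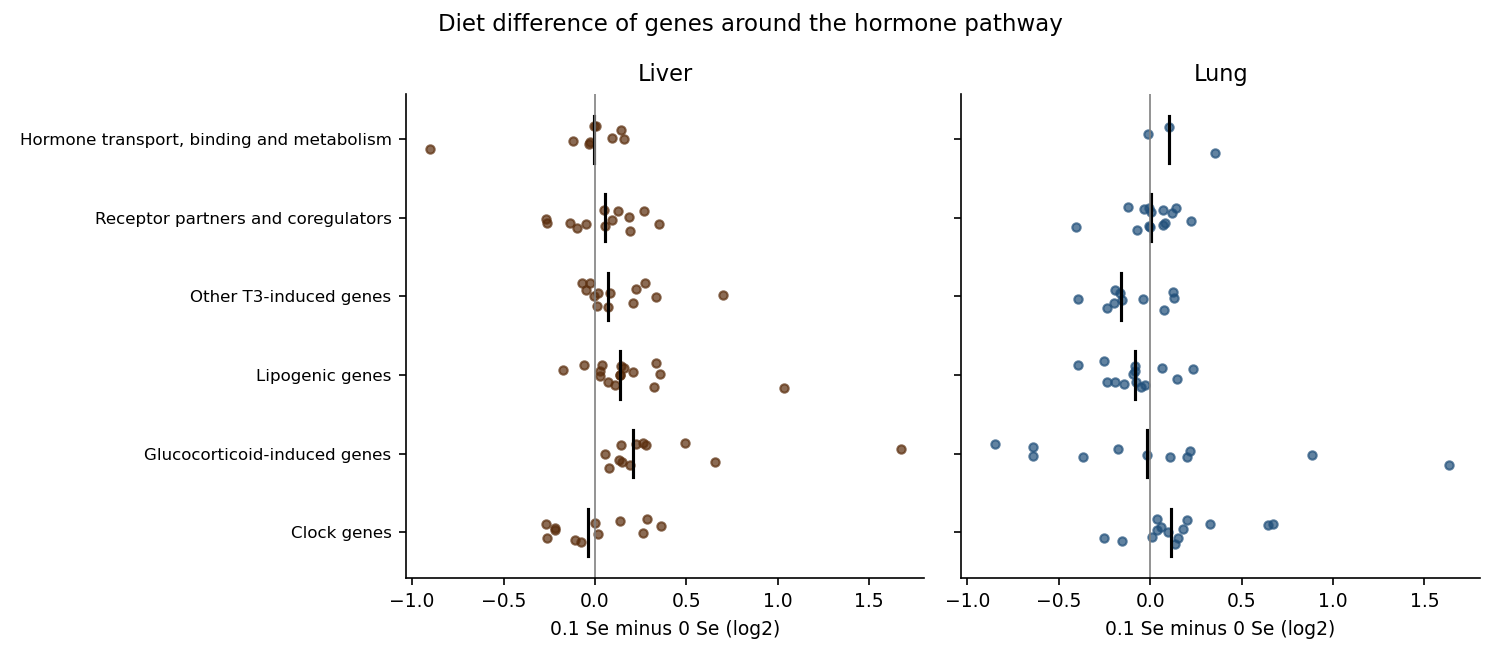
Difference between diets, 0.1 Se minus 0 Se on the log2 scale (x axis), of each gene tested in 6 lists around the hormone pathway (rows), in liver and lung. Dots are genes, short black lines are list medians, and vertical scatter within a row carries no value. No gene passed the adjusted test in either tissue, and the glucocorticoid-induced list in liver lies wholly above 0, with a median of 0.21.

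The genes that move, bind and break down the hormone were read from a list of 16, of which 9 were tested in liver and 3 in lung. None passed in either tissue, and the liver median was -0.0028 on the log2 scale beside -0.0047 over all probe sets tested. Serpina7, the plasma thyroxine-binding globulin, had the lowest liver value of the list, -0.90 ± 0.29, with overlapping groups (adjusted p = 0.625 in limma). Alb, the albumin that carries some hormone in plasma, differed by 0.16 ± 0.11, and the organic anion transporter Slco1a1 by -0.12 ± 0.09. In lung Crym, a cytosolic T3-binding protein, was 0.36 ± 0.17 higher in 0.1 Se with separate groups (adjusted p = 0.677 in limma). Every 0.1 Se array was higher for 6.07% of all probe sets with a value on every lung array. The transporter Slc16a10 differed there by 0.10 ± 0.19, and Iyd, which recovers iodide from iodotyrosines, by -0.01 ± 0.16. Both were lower in lung than in liver, Iyd with a difference of -4.46 ± 0.12 and Slc16a10 with -1.79 ± 0.19 on the log2 scale in 0.1 Se, past the test in both diets.

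Of 17 receptor partners and coregulators, 13 were tested in liver (median difference 0.06) and 14 in lung (median 0.0019), and none passed between diets. The liver genes with the smallest unadjusted p were Tbl1x at 0.27 ± 0.14, Ncoa3 at -0.27 ± 0.14 and Rxrb at 0.35 ± 0.20. In lung they were the coactivator Ppargc1a at -0.41 ± 0.16 (adjusted p = 0.567 in limma), with every 0.1 Se array below every 0 Se array, Rxra at 0.23 ± 0.14 and Crebbp at 0.14 ± 0.12. Every 0.1 Se array was lower for 6.86% of all probe sets with a value on every lung array. Between tissues 6 partners were higher in lung and 3 lower in 0.1 Se, and 7 were higher and 3 lower in 0 Se, of 13 tested. These counts were near the 43.4% higher and 30.6% lower over all probe sets in 0.1 Se and the 42.8% and 30.7% in 0 Se. Rxra, the retinoid X receptor that pairs with the T3 receptors, was lower in lung in 0.1 Se (-2.86 ± 0.10). The coactivators Ncoa1, Crebbp and Ep300 were higher in lung by 0.95 ± 0.11, 1.10 ± 0.13 and 1.06 ± 0.16.

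Other genes known to be induced by T3 did not pass the test between diets. Of 19 such genes, 13 were tested in liver, where 9 differences lay above 0 and 4 below with a median of 0.07, beside -0.0047 over all probe sets. The smallest unadjusted p-values were those of Cyp7a1, the rate-limiting enzyme of bile acid synthesis (0.70 ± 0.29, adjusted p = 0.732), the calcium pump gene Atp2a2 (0.28 ± 0.12, adjusted p = 0.737) and Acaca, which makes malonyl-CoA for fatty acid synthesis (0.34 ± 0.16, adjusted p = 0.766), in limma. The classic hepatic targets Me1, malic enzyme, at 0.07 ± 0.12, and Gpd2, mitochondrial glycerol phosphate dehydrogenase, at -0.07 ± 0.16, were near 0. In lung 10 were tested, with 3 above 0 and 7 below and a median of -0.16. Acaca at -0.39 ± 0.17, Fasn, fatty acid synthase, at -0.24 ± 0.11 and Gpd2 at -0.16 ± 0.10 had the smallest unadjusted p-values there. The difference of Acaca between the tissues was -0.73 ± 0.25 (adjusted p = 0.756 in limma).

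Between tissues the T3-induced genes were mostly lower in lung. In 0.1 Se 9 of 10 were lower past the test and 1, Pdk4, was higher, with a median of -1.34 beside 0.19 over all probe sets, of which 30.6% were lower and 43.4% higher past the test. In 0 Se 7 were lower, 1 was higher and 2 did not pass, with a median of -1.17, beside 30.7% of all probe sets lower and 42.8% higher. In 0.1 Se the difference of lung minus liver was -3.91 ± 0.13 for Me1 and -1.84 ± 0.14 for Cpt1a, which admits fatty acids to mitochondria. Pdk4, which restrains pyruvate oxidation, was higher in lung by 1.64 ± 0.34.

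Thrsp serves lipogenesis, and the lipogenic genes were set beside it. Of 18, 16 were tested in liver, where 14 differences lay above 0 and 2 below with a median of 0.14, and none passed. Acacb, the acetyl-CoA carboxylase of the mitochondrial membrane, had the smallest p of the list and was higher on every 0.1 Se array, by 1.03 ± 0.17 on the log2 scale (unadjusted p = 8.5e-05, adjusted p = 0.176 in limma). Acly, which makes cytosolic acetyl-CoA, differed by 0.35 ± 0.21. In lung 14 were tested, with 3 above 0 and 11 below and a median of -0.08, and Fads2, a fatty acid desaturase, was lower on every 0.1 Se array (-0.25 ± 0.12, adjusted p = 0.677 in limma). Of all probe sets with a value on every array of the tissue, 4.99% in liver had every 0.1 Se array higher and 6.86% in lung had every 0.1 Se array lower. Acaca, Fasn and Me1 belong to both this and the T3-induced list. Between tissues 12 of 14 were lower in lung and 2 higher in each diet, beside 30.6% of all probe sets lower and 43.4% higher in 0.1 Se and 30.7% and 42.8% in 0 Se. In 0.1 Se Elovl6 was at -3.96 ± 0.23 and Scd2 at 6.24 ± 0.26.

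Klf9 answers glucocorticoids as well as T3, and 12 glucocorticoid-induced genes were read beside it. In liver all 12 were tested and all 12 differences lay above 0, with a median of 0.21, and none passed. Zbtb16, a transcription factor strongly induced by glucocorticoids, was higher on every 0.1 Se liver array by 1.67 ± 0.34 (adjusted p = 0.416), and Fkbp5, the receptor co-chaperone, by 0.66 ± 0.27 with overlapping groups (adjusted p = 0.704), in limma. The metallothionein gene Mt2 differed by 0.49 ± 0.31. In lung the same 2 genes were higher on every 0.1 Se array, Zbtb16 by 1.63 ± 0.37 (adjusted p = 0.227) and Fkbp5 by 0.89 ± 0.22 (adjusted p = 0.298), in limma. Dusp1, a phosphatase gene of the early response, was lower on every 0.1 Se lung array (-0.64 ± 0.18, adjusted p = 0.371 in limma). Of all probe sets with a value on every array of the tissue, 4.99% in liver and 6.07% in lung had every 0.1 Se array higher. In lung 6.86% had every 0.1 Se array lower. The lung list had 5 differences above 0 and 6 below, from -0.85 to 1.63, with a median of -0.02. Of these 11 genes none passed after adjustment, and 5 had an unadjusted p under 0.05 in limma, beside 7.67% of all probe sets tested in lung. In liver 2 of the 12 did, beside 6.65%. Glucocorticoid levels were not analysed here, and the part of glucocorticoids in the Klf9 values was not tested.

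Clock genes were included because Klf9 and several hepatic targets vary over the day. Of 16, 12 were tested in liver (6 above 0 and 6 below, median -0.04) and 14 in lung (12 above 0 and 2 below, median 0.12), and none passed. In lung Dbp, a rhythmic output gene, was higher on every 0.1 Se array by 0.67 ± 0.15 (adjusted p = 0.218 in limma), while in liver it differed by -0.27 ± 0.16. Every 0.1 Se array was higher for 6.07% of all probe sets with a value on every lung array. The other clock genes with the smallest unadjusted p-values in liver were Bhlhe40 at 0.36 ± 0.18 and Hlf at 0.28 ± 0.18. Nr1d1, which shares its locus with Thra, was higher in 0.1 Se lung by 0.65 ± 0.21 on 2 listed arrays per diet (adjusted p = 0.466 in limma). Clock differed by -0.25 ± 0.13. The part of time of day in the lung values was not tested.

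The genes whose pattern was most like a member's were named by Pearson r over the 6 arrays of the tissue in which the member was highest, as a description over arrays that share the diets. For Dio1 in liver they were 1110059E24Rik (r = 0.99), Gda (0.98) and Asrgl1 (0.97), of 2901 genes compared, 37 of which had r above 0.9. For Thrsp in liver they were Wars2 (r = 1.00), Coro7 (0.99) and Dap (0.97), of 7592 genes with 85 above 0.9. For Dio2 in lung they were Ptprj (r = 0.97), Zdhhc13 (0.95) and Osbpl7 (0.95), of 5387 genes. For Thra in lung Lemd3, Smu1 and Slc35b3 each had r = 0.99. For Klf9 in lung the first was Lipe (r = 0.99), hormone-sensitive lipase, then Plekha8 and Nktr (both 0.97). So many genes were compared over 6 arrays that a high r is no sign of a tie between genes.

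The tissues matched their labels. All 8 hepatocyte markers were listed on every liver array and 1 or 2 on each lung array, and all 5 alveolar type 2 markers with a probe set were listed on every lung array. Summed hepatocyte markers ran from 361100 to 451500 in 0 Se liver and from 424700 to 453600 in 0.1 Se liver, which overlap. Of these 8 markers, 7 were above 0 and 1 below for 0.1 Se minus 0 Se, from -0.02 to 0.28. Their median was 0.11 beside -0.0047 over all probe sets tested, and none had an unadjusted p under 0.05 in limma. Their part in the liver Thrsp values was not tested. Summed Kupffer cell markers ran from 12600 to 16790 in 0 Se liver and from 17340 to 22290 in 0.1 Se liver, and neutrophil markers from 1171 to 2956 in 0 Se lung and from 4154 to 16980 in 0.1 Se lung. All 7 Kupffer cell markers were above 0 in liver, from 0.26 to 0.90 with a median of 0.39. Of these, 4 had an unadjusted p under 0.05 in limma, beside 6.65% of all probe sets tested. The 3 neutrophil markers tested in lung were above 0, from 1.08 to 1.70. All 3 had an unadjusted p under 0.05 in limma, beside 7.67% of all probe sets tested. None of either list passed after adjustment. Summed club and ciliated cell markers ran from 124000 to 172600 in 0 Se lung and from 91640 to 143500 in 0.1 Se lung, and those of alveolar type 1 cells from 73000 to 95000 and from 57750 to 95460, both with overlap. All 6 club and ciliated cell markers were nevertheless below 0 for 0.1 Se minus 0 Se in lung, from -0.997 to -0.23 with a median of -0.42. None passed after adjustment in limma, and 4 had an unadjusted p under 0.05, beside 7.67% of all probe sets tested in lung. Every 0.1 Se array lay below every 0 Se array for Scgb3a2 and Cyp2f2, beside 6.86% of all probe sets with a value on every lung array. The part of these airway cells in the lung values was not tested. Of 6 thyroid follicular markers, 2 were covered and at most 1 was listed on any array. The Kupffer cell and neutrophil sums separated the diets as liver Thrsp and some lung Klf9 probe sets did, and their part in those values was not tested. Liver arrays listed 17235 to 17923 probe sets and lung arrays 22197 to 22718.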

How the data were processed

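RNA from liver and lung of 12 arrays in 4 groups of 3 was hybridised to Affymetrix mouse expression arrays. The authors deposited log2 values of the MAS5 signal with absent calls left out (R 2.15.2 and affy 1.36.0, per the submitters' processing notes). Of 29467 probe sets, 58 controls were left out, and 24514 carried a single gene symbol in the platform annotation, 660 several. Members and gene lists were chosen with earlier results of these data known. Groups came from the labels. limma 3.58.1 (R 4.3.3) fitted each tissue's diets, and all 12 arrays for tissues and the interaction, with a trended prior, on probe sets with at least 2 values per group, blanks kept missing. Benjamini-Hochberg adjustment ran over all probe sets tested (threshold 0.05, two-sided). Where a gene had several probe sets, the list values came from that with the most values, then the highest mean. Relations used exact two-sided permutation over pairings (scipy 1.17.1). Named from each list were genes past the test and the 3 smallest p-values per tissue, and the 3 genes most like each member. Genes named for their place in a pathway (Me1 and Gpd2 in liver), Adipoq, Cidea, Retn and Ucp1 were added after their values were seen. Scripts were tested on simulated data. Array number limits the precision. MAS5 scales each array separately, and blanks remove low values, so differences of dim probe sets rest on fewer arrays. Alternatives covered blanks, scaling, trend, weights, blocks, the methods' t-test and leaving out each array.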

Additional observations from a re-analysis of the deposited data

How the results depend on the processing

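The diet calls were few and unstable. The 2 liver calls became 1 with values required on all arrays, 8 with blanks at the lowest value, 0 without the trend, 0 with the replicate number as a block, 13 in a fit of all 12 arrays, and 985 by the methods' t-test unadjusted and 0 adjusted. Leaving out 1 array gave 0 to 9, with 0 without the first or the third 0 Se array, 1 without the second, and 9 without the first 0.1 Se array. The 20 lung calls became 4 with blanks at the lowest value, 10 after quantile normalization, 0 without the trend, 13 with a robust trend, 40 with array weights, 54 with the replicate block, and 1412 by the methods' t-test unadjusted and 0 adjusted. Leaving out 1 lung array gave 0 to 75, with 0 without the second array of either diet, 4 without the third 0 Se array and 75 without the first 0.1 Se array. The interaction gave 44 calls with blanks at the lowest value and 0 to 3 when an array was left out, 1 without the second 0.1 Se liver array and 3 without the first 0 Se lung array. The tissue calls of 11116 and 11182 became 17758 and 17840 with blanks at the lowest value.

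No member probe set tested in the main fits passed an adjusted test between diets under any alternative run (lowest adjusted p 0.287 in liver, 0.275 in lung and 0.498 for the interaction, in limma). Member probe sets that enter a comparison only with blanks at the lowest value were not read. By the methods' t-test unadjusted, Thrsp 1424737_at in liver was the only member to pass its threshold, and after adjustment none did. Between diets in liver, 161 of 173 alternative values kept their direction, in lung 175 of 176, and for the interaction 165 of 168. Between tissues, 153 of 168 values kept direction and call in 0 Se and 167 of 168 in 0.1 Se. Those that turned were small. Klf9 1428288_at in liver was -0.035 with array weights, and 1436763_a_at between tissues in 0 Se was -0.045 after median centring. Leaving out 1 liver array gave -0.10 to 0.26 for Klf9 1422264_s_at, -0.17 to 0.10 for 1428288_at, -0.13 to 0.19 for 1428289_at, -0.26 to 0.046 for 1436763_a_at and -0.11 to 0.18 for 1456341_a_at. Leaving out 1 array gave -0.025 to 0.40 for 1428289_at in lung, -0.10 to 0.34 for its interaction, -0.10 to 0.36 for that of Thra 1454675_at and -0.049 to 0.31 for 1436763_a_at between tissues in 0 Se. The call of Klf9 1422264_s_at between tissues in 0 Se, with an adjusted p of 0.0439 in limma, was lost under 10 alternatives (adjusted p from 0.0519 to 0.272). The relation of Dio2 to Thrsp turned to -0.62 without 2 arrays, and that of Dio2 to Thra to -0.13 around the diet means. The causes were not tested.

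The labels do not say what a replicate number shares, and the numbers were not treated as pairs. Deviations of same-numbered arrays from their group means correlated between -0.19 and 0.15. Both ends of that range were between the diets of a tissue, which cannot show whether a liver and a lung array came from the same mouse. Between liver and lung the same-numbered correlations were 0.064 to 0.11 in 0 Se, where all differently numbered ones were below 0, and -0.039 to 0.023 in 0.1 Se. The replicate block changed no other member call than that of Klf9 1422264_s_at between tissues in 0 Se (0.42, adjusted p = 0.0542 in limma). Thrb could not be fitted with values required on all arrays or without the first or the third 0 Se liver array.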
